A study of Drosophila melanogaster with 3 samples.

Results

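The cuticle protein genes described here are the protein-coding genes of Drosophila melanogaster whose symbols begin with Cpr and a digit or with Twdl. There were 95 of them, 70 Cpr and 25 Twdl genes, among the 13945 protein-coding genes on the 6 main chromosome arms. The rule that picks them reads only the symbol. It leaves out Tb (Tubby), a Tweedle gene listed under its older name, which is described separately below. The data came from chromatin immunoprecipitation with sequencing (ChIP-seq) of whole embryos of 4 to 16 hours that stably carry a transgene of unpg with GFP fused to its C terminus. The gene unpg (unplugged) encodes a homeodomain transcription factor. There were 3 biological replicates, numbered 3, 4 and 5 in the labels, in 1 group. Per the sample descriptions the precipitation used an anti-GFP antibody, although another label field names unpg. Peaks were called against a shared control library. Embryos without the tag were not analysed here, so the dependence of any peak on the fusion protein was not tested. Every cell of the embryo contributed to each library, so the tissue in which a site was bound cannot be told apart.

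The insect cuticle is an extracellular coat of chitin and protein that the epidermis and the tracheal cells secrete in the later part of embryogenesis and renew at each moult. Cpr proteins carry the Rebers and Riddiford consensus, a stretch that binds chitin. The Tweedle family (Twdl) is named after TwdlD, whose dominant alleles give short and stout larvae, and the classical marker Tubby is an allele of TwdlA, the gene now listed as Tb. Genes of both families are mostly short, many lie in tandem clusters, and they are known to be transcribed mainly in cuticle-forming cells. Their median length was 1088 bp (the longest 18590 bp), against 2166 bp over all protein-coding genes.

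The peaks were read from 5 lists on the dm6 assembly. The list of peaks that passed the irreproducible discovery rate (IDR) step was the shortest, with 6875 peaks near enough to a gene to be assigned, while the pooled list and each replicate list held 30000 peaks. A summit, the single base that marks the top of a peak, was assigned to the protein-coding gene with the nearest transcription start site (TSS), at most 20 kb away. A gene with such a summit is called occupied below. The rank of a peak is its place by signal value within 1 list, 1 being the strongest. In each replicate list the strongest peaks were used, as many as the IDR list holds, and these are called top peaks. The lists carry no read counts, so depth is unknown, and intervals are 95% Wilson intervals over genes or summits that cover counting error only.

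The summit windows below show the DNA at the centre of 6 of the IDR peaks assigned to cuticle protein genes. They are the strongest of these peaks, at Cpr76Ba, and 5 windows that hold a homeodomain word. Each runs from 50 bases before to 50 bases after the summit on the plus strand of the dm6 reference. Capitals mark TAATTA and CAATTA, hexamers of the kind that many homeodomains bind in vitro, or TAATTG, which is CAATTA read from the other strand.
Cpr76Ba, chr3L:19516668-19516768: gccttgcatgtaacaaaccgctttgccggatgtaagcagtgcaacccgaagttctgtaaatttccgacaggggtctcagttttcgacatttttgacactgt
Cpr92A, chr3R:19584910-19585010: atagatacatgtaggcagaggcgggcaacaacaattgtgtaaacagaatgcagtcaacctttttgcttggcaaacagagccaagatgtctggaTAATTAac
Cpr65Eb, chr3L:7090924-7091024: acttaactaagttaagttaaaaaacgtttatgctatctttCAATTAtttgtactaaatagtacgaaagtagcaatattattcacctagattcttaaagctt
Cpr73D, chr3L:16941335-16941435: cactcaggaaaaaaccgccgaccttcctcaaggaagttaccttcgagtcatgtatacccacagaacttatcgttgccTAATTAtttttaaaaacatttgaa
Cpr67Fb, chr3L:10893528-10893628: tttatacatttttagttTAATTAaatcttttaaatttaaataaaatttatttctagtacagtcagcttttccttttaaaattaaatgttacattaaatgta
Cpr65Ea, chr3L:7086874-7086974: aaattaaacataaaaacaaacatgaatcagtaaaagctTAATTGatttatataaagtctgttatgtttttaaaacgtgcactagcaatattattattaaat

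The first question was how many cuticle protein genes carry a reproducible summit. An IDR summit was assigned to 11 of the 95 genes, or 11.6% (interval 6.59 to 19.6), against 26.9% of all protein-coding genes. Each of the 11 had exactly 1 such summit, and 0 of the 95 had 2 or more, against 9.7% of all genes. A summit within 500 bp of the TSS, the promoter in what follows, was found at 2 genes, or 2.11% (0.579 to 7.35), against 17% of all genes. Among the top peaks, 13, 11 and 13 cuticle protein genes had a summit in replicates 3, 4 and 5, against 28.1%, 27.5% and 28% of all genes. A top summit in the promoter was found at 4, 2 and 4 cuticle protein genes in these replicates, against 17.4%, 17.7% and 18.5% of all genes. As a mean over replicates, a top summit was at 13% ± 1.22 of the cuticle protein genes and 27.8% ± 0.319 of all genes (SD, n = 3 replicates each). The lowest background share in any replicate lay above the highest share of cuticle protein genes, 13.7%. These shares are descriptions, and the difference between the gene groups was not tested.

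All of the occupied genes were Cpr genes. Of the 70 Cpr genes 11 were occupied, or 15.7% (9.01 to 26), and in replicates 3, 4 and 5 there were 12, 11 and 13 with a top summit. Of the 25 Twdl genes 0 were occupied (0 to 13.3), and in the replicates 1, 0 and 0 Twdl genes had a top summit. That 1 was TwdlQ in replicate 3, at rank 6695 and 3140 bp downstream of its TSS. Over all protein-coding genes 26.9% were occupied. The catchment of a gene is the DNA closer to its TSS than to any other. Its median was 2588 bp for Twdl genes, 3364 bp for Cpr genes and 4253 bp for all protein-coding genes. A short catchment can collect few summits, and the difference between the families was not tested.

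The Tweedle gene left out by the symbol rule, Tb, did carry an IDR summit, at chr3R:26654685-26654895 with rank 3030. It lay 1644 bp upstream of the TSS, and the replicate peaks had ranks 2711, 4021 and 4115 at 1670, 1647 and 1636 bp upstream. Counted with Tb, 1 of 26 Tweedle genes was occupied, or 3.85% (0.682 to 18.9), with 2, 1 and 1 in the replicates, so the absence of IDR summits holds for the genes with a Twdl symbol and not for the whole family. With Tb the cuticle protein genes came to 12 of 96, or 12.5% (7.3 to 20.6). Tb was looked at after the values were known.

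**Figure D1:**
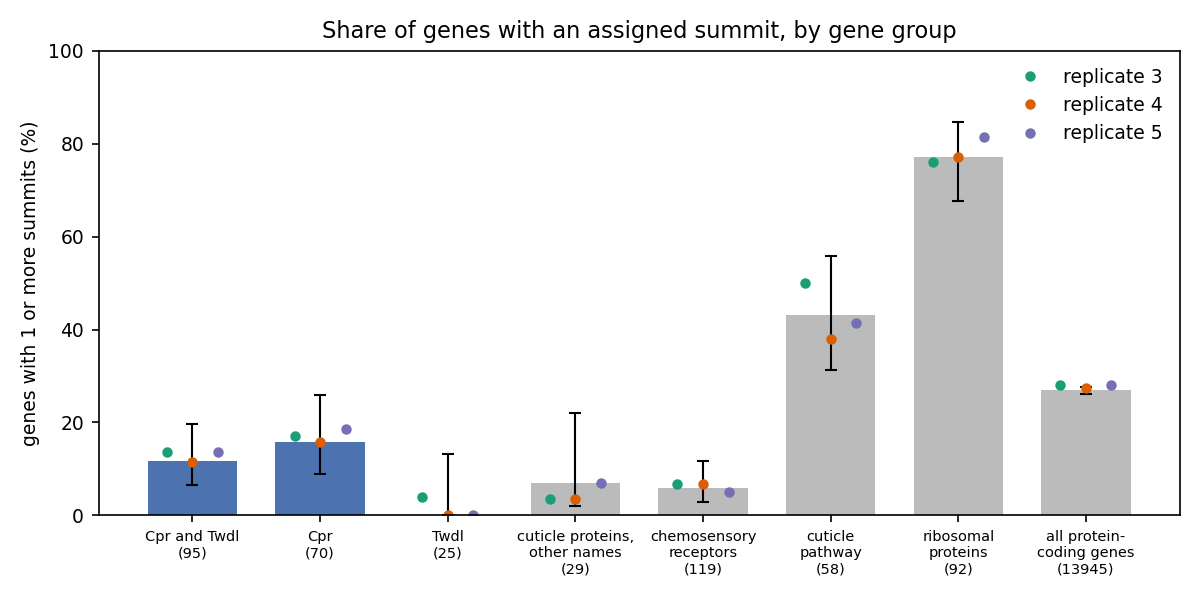
Percentage of genes with 1 or more IDR summits in each gene group (bars, with 95% Wilson intervals) and with 1 or more top summits in each replicate (coloured points); the number of genes stands in brackets on the horizontal axis. The blue bars of the cuticle protein genes, at 11.6% together, lie below the 26.9% of all protein-coding genes, and the Twdl bar is at 0.

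The other groups in the plot of shares by gene group place these values. Cuticle protein genes under other names (Lcp, Ccp, Edg, Pcp, resilin and 2 Acp genes) were occupied in 2 of 29 cases, or 6.9% (1.91 to 22). Those 2 were Edg91, with a promoter summit at rank 6502, and Ccp84Aa, at rank 5150. Chemosensory receptor genes, another tandemly clustered family, were occupied in 7 of 119 cases, or 5.88% (2.88 to 11.6). Ribosomal protein genes, which are active in all cells, were occupied in 71 of 92 cases, or 77.2%. The cuticle protein genes thus had a share above that of chemosensory receptor genes in each replicate, 13% ± 1.22 against 6.16% ± 0.97 (SD, n = 3 replicates each), a difference that was not tested.

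A list of 58 genes that make, order, tan or control the cuticle was counted in the same way. Of these, 25 were occupied, or 43.1% (31.2 to 55.9), against 26.9% of all genes. With 2 or more IDR summits there were 14, or 24.1% (15 to 36.5), against 9.7% of all genes. The ecdysone-induced nuclear receptor gene Eip75B had 13 summits, the nuclear receptor gene ftz-f1 had 7 and the ecdysone receptor gene EcR had 7. The epidermal transcription factor genes ovo (whose shavenbaby form drives denticle formation) and grh (grainy head) had 4 and 3, and sn (the actin-bundling protein fascin) had 4, while the nuclear receptor gene Hr3 and the repressor gene Blimp-1 had 0. Among enzymes, Ddc (dopa decarboxylase, which supplies the tanning pathway) and Cht7 (a chitinase) had 1 each, while kkv (chitin synthase), serp and verm (chitin deacetylases) and ple (tyrosine hydroxylase) had 0. The median catchment of these genes, that is, the DNA closer to their TSS than to any other, was 12005 bp, against 3262 bp for the cuticle protein genes. In the longest quartile of catchment length, which holds 35 of the 58, 19 were occupied, or 54.3% (38.2 to 69.5), against 45.2% of all genes there. In the third quartile it was 5 of 15, or 33.3% (15.2 to 58.3), against 27.3%. The second had 1 of 7, or 14.3% (2.57 to 51.3), against 21.3%, and the shortest 0 of 1. The share was thus not above that of all genes in every quartile.

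The strongest occupied genes were Cpr76Ba and Cpr92A, both of which encode chitin-binding cuticle proteins. The peak of Cpr76Ba, at chr3L:19516584-19516870, had rank 880 in the IDR list and ranks 585, 1244 and 1407 in replicates 3, 4 and 5. Its summit was intergenic, 1614 bp downstream of the TSS, and the replicate summits fell within 10 bp of each other. The next TSS was that of a neighbour in the same cluster, Cpr76Bb, 2931 bp away, and the nearest gene outside the family, CG9452, was 12848 bp away. The peak of Cpr92A, at chr3R:19584717-19585227, had rank 995 and ranks 1362, 759 and 755 in the replicates. Its summit lay 13995 bp downstream of the TSS inside an intron of Dys, the dystrophin gene, and 1236 bp from the start of a small nucleolar RNA gene, so its assignment to Cpr92A rests on distance over protein-coding genes alone. Both peaks were among the strongest 1794 of the IDR list and of every replicate list.

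Next came Cpr65Eb, Cpr51A and Cpr73D. The peak at chr3L:7090854-7091106 had rank 2006 and ranks 1869, 2337 and 2804 in the replicates. It lies between the divergent genes Cpr65Eb and Cpr65Ec, 2187 bp upstream of the TSS of Cpr65Eb and 2230 bp upstream of that of Cpr65Ec. The replicate summits lay within 50 bp of each other, and that of replicate 4 was nearer to Cpr65Ec, so the 2 genes cannot be told apart as its target. The peak of Cpr51A, at chr2R:14518163-14518385, lay 3051 bp upstream of the TSS in intergenic DNA, with rank 3207 and ranks 3897, 3313 and 3129. The peak of Cpr73D, at chr3L:16941294-16941506, lay in the gene's own intron, with rank 4266 and ranks 3390, 5545 and 5756. Cpr73D is 18590 bp long and has 2 start sites. The summit was 1564 bp downstream of the internal start site, far from the gene's 5' end, and 2433 bp from the TSS of CG13022. A different IDR summit lay nearer, 757 bp from a start site of Cpr73D, but was assigned to another gene. In replicate 5 alone Cpr73D had another top summit, 332 bp upstream of the start site at the 5' end, at rank 6661. Each of these 3 peaks was a top peak in every replicate.

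Upstream peaks beyond the promoter also lay at Cpr67Fb, Cpr100A and Cpr35B. The peak of Cpr67Fb, at chr3L:10893396-10893759, had a summit at 595 bp upstream, just outside the promoter window, with rank 4310 and ranks 4858, 4336 and 3532. In replicate 3 the summit was 499 bp upstream and so just inside that window, and replicate 5 had a further top summit there, 418 bp upstream at rank 5301. The peak of Cpr100A, at chr3R:30865608-30865763, lay 1856 bp upstream with rank 4692 and ranks 5832, 4169 and 5461. Replicates 3 and 5 also had a top summit at Cpr100A farther out, 7137 bp upstream at rank 5788 and 7210 bp upstream at rank 6451, and replicate 4 had one 4800 bp upstream at rank 6895. The peak of Cpr35B, at chr2L:14432565-14432692, lay 7442 bp upstream with rank 5385 and ranks 5661, 5001 and 5138. A non-coding gene, lncRNA:CR44732, starts 1809 bp from that summit, while the next protein-coding TSS, that of the hormone subunit gene Pburs, is 15300 bp away.

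The promoter summits were those of Cpr65Av and Cpr65Ea. The peak of Cpr65Ea, at chr3L:7086742-7087105, had a summit at 316 bp upstream with rank 5515 and ranks 6840, 5312 and 6144. The peak of Cpr65Av, at chr3L:6140196-6140559, had its summit 404 bp upstream with rank 5485 and ranks 5610, 5804 and 5921. Both were in the promoter in all 3 replicates, at 358, 366 and 317 bp upstream for Cpr65Ea and 375, 381 and 327 bp upstream for Cpr65Av. The neighbouring peak of Cpr65Aw, at chr3L:6141051-6141414, lay 1180 bp downstream of its TSS and was the weakest, with rank 7154, near the end of the IDR list. Its ranks were 6570, 13387 and 5150, so in replicate 4 it was not a top peak.

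**Figure D2:**
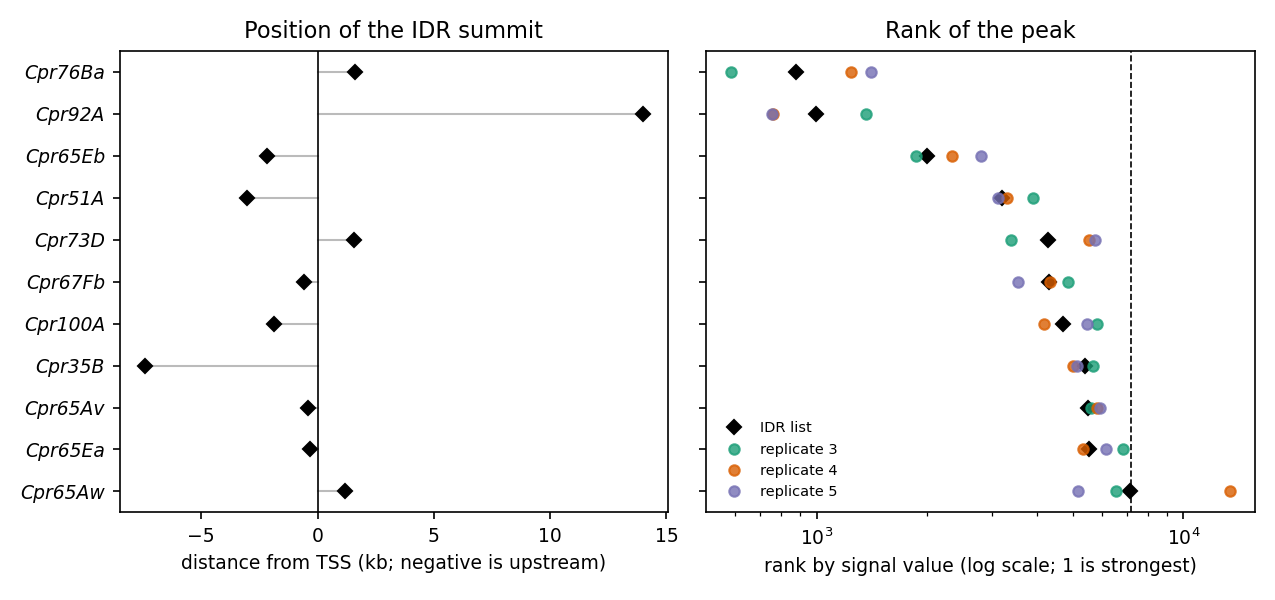
The 11 IDR summits of cuticle protein genes, in order of rank: on the left the distance from the TSS in kb, negative upstream, and on the right the rank by signal value on a log scale in the IDR list (black) and in replicates 3, 4 and 5 (coloured), with a dashed line at the number of peaks in the IDR list. The summits lie from 316 bp to 13995 bp from the TSS, and only the replicate 4 peak of Cpr65Aw lies beyond the dashed line.

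The plot of positions and ranks shows 11 summits that lay mostly outside promoters and were spread over the range of ranks. Within 500 bp of a TSS were 2 of 11, or 18.2% (5.14 to 47.7), against 38.3% of the 6875 IDR summits assigned to any gene. Over the replicates the promoter share was 23.4% ± 6.11 of the summits at cuticle protein genes and 40.1% ± 1.43 of all assigned summits (SD, n = 3 each). The median distance was 1614 bp, against 1138 bp over all assigned summits. Upstream of the TSS were 7 summits and downstream 4, so 63.6% lay upstream, against 55.7% of all. Intergenic DNA held 9, introns held 2 and coding sequence held 0. The median rank was 4310, against 3550 over all assigned IDR summits, and 4 of the 11 fell among the weakest 1794 of the list, 36.4% against 24.6%. With 11 summits none of these differences was tested, and the interval of the promoter share reaches past 38.3%.

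Presence across the replicates was counted next. A top summit was found in all 3 replicates at 9 of 95 cuticle protein genes, or 9.47%, against 21.3% of all genes. These 9 were occupied in the IDR list as well, and no gene had a top summit in all 3 replicates without one. The IDR list was derived from these lists, so this is not an independent check. In 2 replicates were Cpr65Aw and Cpr65Eb, and in 1 replicate were TwdlQ, Cpr67Fa1, Cpr72Eb, Cpr65Ec, Cpr65Az and Cpr64Ad, none of which had an IDR summit; these 6 are 6.32%, against 7.85% of all genes. Cpr65Eb is in 2 and Cpr65Ec in 1 because their shared peak was nearer to Cpr65Ec in replicate 4, so that peak itself was in all 3. The other 78 genes, or 82.1%, had no top summit in any replicate, against 65% of all genes. Among the genes found in 1 replicate, Cpr72Eb had a summit 501 bp upstream of its TSS at rank 7141 in replicate 4 and no top summit in replicates 3 and 5.

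The clusters were the next question. Genes whose start sites lay at most 20 kb from the next formed 13 clusters of 3 or more, 10 of Cpr and 3 of Twdl genes, with 64 members. Only 4 of the 13 held an occupied member, and 9 clusters with 47 members held none. Of the clustered genes 6 of 64 were occupied, or 9.38% (4.37 to 19), and of the 31 unclustered genes 5, or 16.1% (7.09 to 32.6). The share of all protein-coding genes, 26.9%, lay inside the interval of the unclustered genes and above that of the clustered genes. In the replicates the shares were 10.9% ± 1.56 of clustered and 17.2% ± 1.86 of unclustered genes (SD, n = 3 each). Clustered genes had the shorter catchments, with a median of 2582 bp against 7132 bp. When summits were assigned to gene bodies with 2 kb on each side, the order turned round, to 14.1% of clustered and 9.68% of unclustered genes. It also turned round with a limit of 1 kb, to 4.69% and 0%. With a limit of 5 kb, and with genes of any biotype, the shares were nearly equal, at 9.38% and 9.68%. The other settings tried kept clustered genes lower, so the order of the 2 sets depends on the assignment.

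The largest cluster was that of the Tweedle genes on arm 3R, 12 genes from TwdlM to TwdlD in 21.9 kb. It held 0 IDR summits and no top summit of any replicate, and its genes lay 14771 to 35678 bp from the nearest IDR summit. For TwdlD, the nearest to one, that was the summit of Tb, whose TSS is 16415 bp from that of TwdlD and would join the cluster under the same spacing. On arm 2R the 8 genes from Cpr49Aa to Cpr49Ah held 0 IDR and 0 pooled summits, and the nearest IDR summit was 21976 to 48955 bp away. The 7 genes from Cpr47Ea to Cpr47Eg were unoccupied too, although 1 IDR summit in their span belonged to another gene. These 3 runs of genes were thus without an assigned IDR summit from first to last member.

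On arm 3L the picture varied between clusters. Of the 7 genes from Cpr65Au to Cpr65Az, Cpr65Av and Cpr65Aw were occupied, and both summits lay between the start sites of these neighbours. The cluster from Cpr65Ea to Cpr65Ec was the most occupied, with 2 of 3 genes, and its remaining member shares the divergent region described above. Among the 3 genes from Cpr67Fa1 to Cpr67Fb only Cpr67Fb was occupied, and among the 4 genes from Cpr76Ba to Cpr76Bd only Cpr76Ba. The 4 genes from Cpr64Aa to Cpr64Ad were unoccupied, as were the Cpr62B, Cpr72E and Cpr78C clusters. By arm, 7 of 35 cuticle protein genes were occupied on 3L, against 2 of 24 on 3R, 1 of 22 on 2R, 1 of 6 on 2L and 0 of 8 on X. Over all protein-coding genes the shares per arm were 28.6% on 3L, 25.9% on 3R, 24.3% on 2R, 26.9% on 2L and 30% on X.

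**Figure D3:**
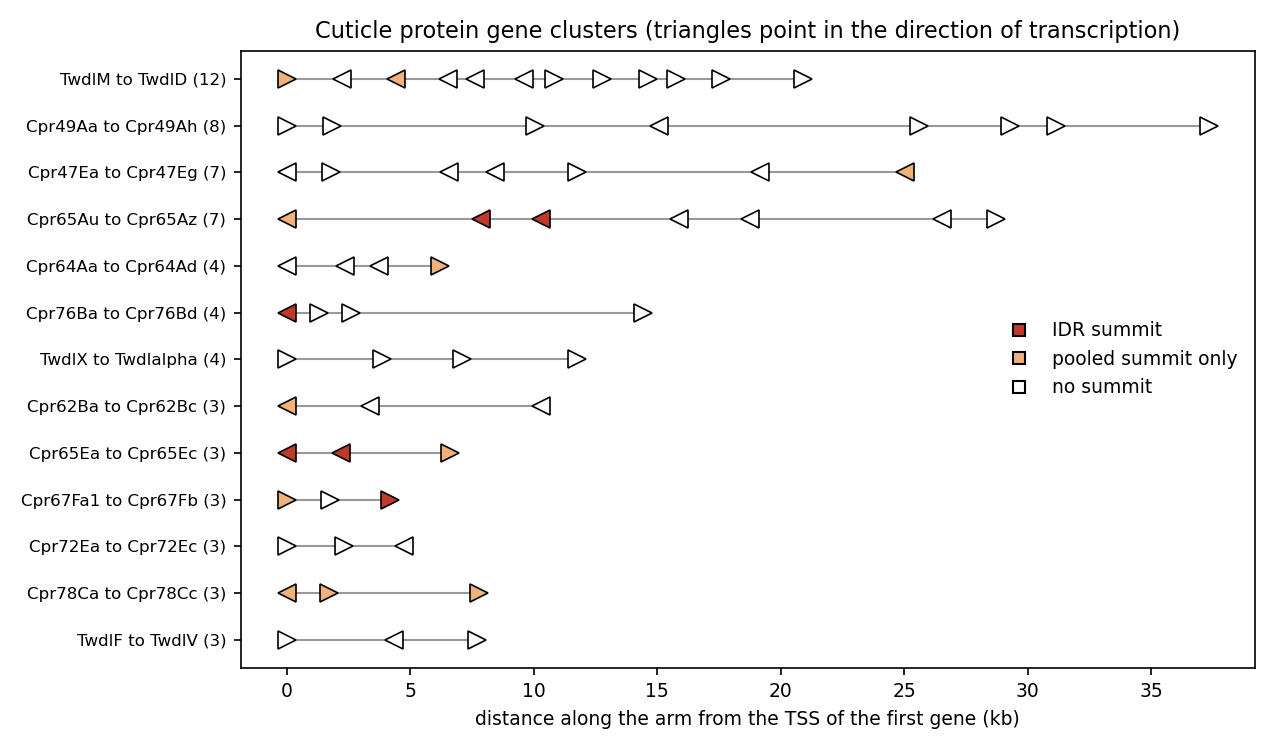
The 13 cuticle protein gene clusters drawn to scale, with distance in kb from the first TSS; triangles are genes pointing in the direction of transcription, filled red with an IDR summit, orange with a pooled summit only and white with neither, and the number of genes stands in brackets. Red triangles appear in 4 clusters, and the Cpr49A and TwdlX rows are white throughout.

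As the map of clusters shows, whole runs of genes were without a summit. The cluster spans covered 213 kb and held 7 IDR summits of any gene, or 32.8 per Mb, against 53.6 per Mb over the 6 arms. In replicates 3, 4 and 5 the spans held 7, 7 and 9 top summits. The spans also held 27 other protein-coding genes, of which 3 were occupied, against 26.9% of all protein-coding genes. Of the 27, 11 lay in the span from Cpr65Au to Cpr65Az. That span takes in Lcp65Ad and Lcp65Ae, so some of the 27 are cuticle protein genes under other names. Inside another protein-coding gene lay 11 cuticle protein genes, of which 0 were occupied (0 to 25.9%) and 2 had a pooled summit. Of the 1875 protein-coding genes so placed in the whole annotation, 20.2% were occupied and 37.4% had a pooled summit.

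Most cuticle protein genes lay far from any IDR summit, whichever gene that summit was assigned to. The median distance from a TSS to the nearest IDR summit was 14161 bp (quartiles 5820 and 20938 bp), against 5298 bp (755 and 14799 bp) over all protein-coding genes. For Twdl genes it was 19911 bp, with 3714 bp as the smallest, and for Cpr genes 13803 bp, with 316 bp as the smallest. Within 5 kb of an IDR summit were 22 of 95, or 23.2% (15.8 to 32.6), against 48.8% of all genes. The unoccupied genes that came nearest were Cpr65Ay at 869 bp, Cpr67Fa2 at 1864 bp and Cpr65Ec at 2230 bp, each with a start site of another gene closer to the summit.

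**Figure D4:**
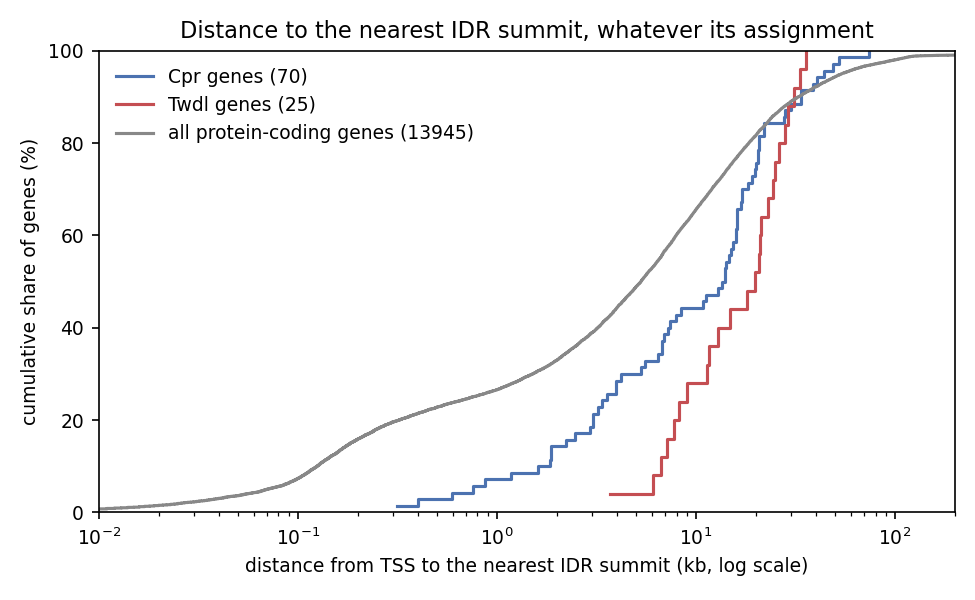
Cumulative percentage of genes against the distance in kb, on a log scale, from a TSS to the nearest IDR summit, for Cpr genes (blue), Twdl genes (red) and all protein-coding genes (grey). At the median the Cpr and Twdl curves lie to the right of the grey curve, at 13803 and 19911 bp against 5298 bp. The largest distances are 74466 bp for Cpr and 35678 bp for Twdl genes, against 3647182 bp for all, so the order turns round at the top.

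The plot of distances takes no account of the catchment, and a gene with a short catchment can collect few summits. The cuticle protein genes were therefore set beside all genes of the same quartile of catchment length. In the shortest quartile (up to 2108 bp) 1 of 27 cuticle protein genes was occupied, or 3.7% (0.657 to 18.3), against 13.7% of all genes. In the second quartile (up to 4253 bp) it was 3 of 33, or 9.09% (3.14 to 23.6), against 21.3%. In the third (up to 9871 bp) it was 4 of 21, or 19% (7.67 to 40), against 27.3%, and in the longest 3 of 14, or 21.4% (7.57 to 47.6), against 45.2%. The share was below that of all genes in each of the 4 quartiles, and each of the 4 intervals holds the value of all genes. Per Mb of catchment the cuticle protein genes had 23.2 IDR summits, against 61.6 for all genes.

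**Figure D5:**
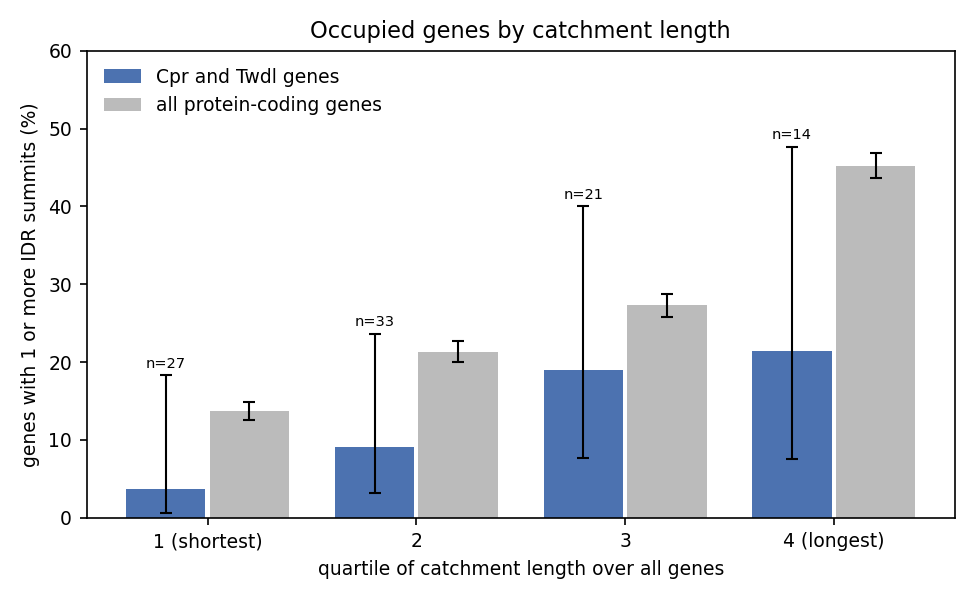
Percentage of genes with 1 or more IDR summits by quartile of catchment length, for Cpr and Twdl genes (blue) and all protein-coding genes (grey), with 95% Wilson intervals and the number of cuticle protein genes above the bars. Blue bars lie below grey bars in each quartile, at 3.7% against 13.7% in the shortest and 21.4% against 45.2% in the longest.

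The plot by quartile rests on the IDR list alone, and the pooled list goes deeper. In the pooled list 28 of 95 cuticle protein genes had a summit, or 29.5% (21.2 to 39.3), against 45.2% of all genes, and 67 had none. The 28 were the 11 occupied genes and 17 more, with 70 summits in all. Most of the 59 that did not overlap an IDR peak were weak calls. The median -log10 q-value of the 59 in the authors' list was 0.836, although 7 reached the ceiling of 4.37 that all IDR peaks share. Of the 59, 20 overlapped a peak in all 3 full replicate lists and 5 in none. No such values are given here for all pooled peaks. Within 500 bp of a TSS were 20% of the 70 summits, against 25.7% of all assigned pooled summits.

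Many of the pooled summits lay at a pair of genes. Cpr35B had 17 pooled summits, 663 to 10707 bp from its TSS, 10 upstream and 7 downstream, and 8 of them overlapped peaks in all 3 replicate lists. TwdlM, the first gene of the large Tweedle cluster, had 8, the strongest at rank 10020 and 5598 bp upstream. Together they held 25 of the 70, or 35.7%. Both genes have long catchments, 16796 bp for Cpr35B and 21123 bp for TwdlM, against a median of 3262 bp. Some of the pooled peaks at Cpr35B overlap each other, so the counts are not counts of separate sites. Cpr100A and Cpr65Ea, both occupied, had 4 each. The cluster from Cpr78Ca to Cpr78Cc had a pooled summit at 3 of 3 genes, close to the start sites (4 and 233 bp at Cpr78Cb, 40 bp at Cpr78Cc and 492 bp at Cpr78Ca), and ranks from 18891 to 23903 placed all of them far below the IDR set.

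The summit windows were then read for short words. TAATTA or CAATTA, on either strand, was in 6 of the 11 windows, or 54.5%, against 21.2% of all IDR windows. TAATTA was in 4 (Cpr92A, Cpr51A, Cpr73D and Cpr67Fb), or 36.4%, against 11.4%, and CAATTA in 2 (Cpr65Eb and Cpr65Ea), or 18.2%, against 11.2%. The windows of Cpr76Ba, Cpr100A, Cpr35B, Cpr65Av and Cpr65Aw held neither, among them that of the strongest peak. Of the promoter words, TATCGATA was in 0 of 11 windows, against 0.92% of all, and GGTCACACT in 0 of 11, against 0.697%. In IDR windows beyond 500 bp of a TSS these 2 words had shares of 0.118% and 0.165%. The repeats GAGAGAG (0 of 11, against 1.02%) and CACACAC (0 of 11, against 1.85%) and the GATA-type word AGATAAG (0 of 11, against 1.78%) were not found either. All these words are so rare over all windows that 0 of 11 does not set the 11 windows apart. GC content had a median of 24.8% and ran from 14.9% at Cpr67Fb to 46.5% at Cpr76Ba, against a median of 29.7% over all windows. TTTATG was in 2 windows, those of Cpr65Eb and Cpr65Ea, or 18.2%, against 14.5%. TATAAA was in 4 windows (Cpr67Fb, Cpr35B, Cpr65Ea and Cpr65Aw), or 36.4%, against 25.3%. The part of GC content in these word counts was not tested.

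The windows of Cpr65Eb and Cpr65Ea, whose genes are neighbours, share the 13-base run TAGCAATATTATT, found in the right part of both sequences above. It was in 0.0279% of all IDR windows, which is these same 2. Over the 55 pairs of the 11 windows the longest shared run had a median of 7 bases, and the next longest was 12. This search was made after the windows had been seen.

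About as many cuticle protein genes had the word TATAAA at the usual place of a TATA box, the element that binds the TATA-binding protein, as lacked it. TATAAA on the coding strand, 40 to 20 bp before the TSS, was in 49 of 95, or 51.6%, against 7.79% of all protein-coding genes. It was in 48.6% of Cpr and 60% of Twdl promoters, against 3.36% of those of chemosensory receptor genes and 1.09% of those of ribosomal protein genes. Of the occupied genes 6 of 11 had it, or 54.5%, and of the unoccupied 43 of 84, or 51.2%, so the word was about as frequent in both. The promoters of both genes with a promoter summit and of TwdlD are shown from 100 bp before to 20 bp after the TSS on the coding strand, with TATAAA in capitals. Cpr65Av and Cpr65Ea lie on the minus strand and TwdlD on the plus strand.
Cpr65Av promoter, chr3L:6139954-6140074: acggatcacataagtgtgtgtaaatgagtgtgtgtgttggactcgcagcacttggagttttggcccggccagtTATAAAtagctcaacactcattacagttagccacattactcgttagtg
Cpr65Ea promoter, chr3L:7086588-7086708: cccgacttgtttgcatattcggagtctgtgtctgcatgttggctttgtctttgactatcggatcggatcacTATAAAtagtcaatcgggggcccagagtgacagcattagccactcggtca
TwdlD promoter, chr3R:26639925-26640045: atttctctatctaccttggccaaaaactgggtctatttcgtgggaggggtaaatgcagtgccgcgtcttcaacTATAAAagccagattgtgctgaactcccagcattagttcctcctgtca

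Promoter summits were also counted by the presence of this TATAAA. Over all protein-coding genes a promoter IDR summit was at 78 of 1087 genes with the word, or 7.18% (5.79 to 8.87), and at 2298 of 12858 genes without it, or 17.9% (17.2 to 18.5). Among cuticle protein genes the counts were 2 of 49 with the word, or 4.08% (1.13 to 13.7), and 0 of 46 without it (0 to 7.71). The 2 were Cpr65Av and Cpr65Ea, whose summits lay 404 and 316 bp upstream and so outside the TATA region shown. Each of these shares lay below that of all genes in the same class. In replicates 3, 4 and 5 a top promoter summit was at 3, 2 and 2 of the 49 with the word. These are 6.12%, 4.08% and 4.08%, against 7.27%, 7.18% and 7.54% of all genes with the word. Such a summit was at 1, 0 and 2 of the 46 without it, against 18.2%, 18.6% and 19.4% of all genes without it. The 0 of 46 thus varies with the list, and the differences were not tested.

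Repeated sequence lay around few of the start sites, and it was not counted over all protein-coding genes. Of the 95 genes 85 had no 50-base stretch within 1 kb of the TSS that recurs elsewhere in the reference. Cpr65Ax1 and Cpr65Ax2, a pair of close copies on 3L, had 61.5% and 61.6% of such stretches repeated and had no pooled summit. TwdlL, TwdlB, TwdlK, TwdlJ, TwdlN and TwdlM, all in the large Tweedle cluster, had from 16.3% down to 5.02% repeated. Cpr67Fa1 and Cpr67Fa2 had 0.922% each. Whether reads with several matches were kept is not given in the sources used here. The lack of IDR summits at these genes is therefore uncertain, and the part of repeated sequence in it was not tested. Of these genes TwdlM, Cpr67Fa1 and TwdlB had 8, 3 and 1 pooled summits, and the others had 0. Of the 93 genes other than Cpr65Ax1 and Cpr65Ax2, 11 were occupied, or 11.8%.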

How the data were processed

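Peaks came from 3 biological replicates of 1 group. Per the descriptions deposited with the files, the authors called peaks on each replicate and on all replicates together, each against 1 shared control, on dm6, and derived the IDR list from these. The sources used here name no aligner, peak caller, version or IDR threshold. The deposited signal score of each peak, whose scale is not stated, served only for ranks within a list. The deposited −log10 q-value was at 1 ceiling, 4.37, in the IDR list. The deposited summit offset gave the summit position. The IDR list equals the same number of pooled peaks of highest score. The lists hold no read counts, so the depth per sample is unknown.

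Genes and start sites came from Ensembl release 115 and sequence from the Release 6 reference. With no second group, no test between groups was made: counts stand beside those of all protein-coding genes, and replicates use the strongest peaks of each list, as many as the IDR list holds, since the full lists end at 30000. Assignment was tested on simulated data. The members and lists were chosen with earlier results of these data known. The promoter word position, shared runs and repeated 50-base stretches were chosen after the data had been seen, and promoters were read from the genome. Genes named are the members with an IDR summit, the 3 with most pooled summits, the first and last of the 5 largest clusters and the 3 unoccupied ones nearest to a summit; others were chosen after their values were seen. The list of cuticle proteins under other names was trimmed to 29 genes from a symbol pattern of 47 that took in accessory gland protein genes; the pattern gave 8.51% occupied. In the pathway list 4 older symbols were replaced by current ones. Alternatives varied the assignment, peak set, promoter window, cluster gap and replicates. Python 3.11.15, numpy 2.4.6, pandas 2.3.3, scipy 1.17.1 and matplotlib 3.10.9 were used.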

Additional observations from a re-analysis of the deposited data

How the results depend on the processing

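Of 71 alternatives 51 kept the value within the bounds set for it and 20 moved it. With a limit of 1 kb in place of 20 kb, 3 genes had 3 IDR summits, 66.7% of these within 500 bp, 4.33 genes per replicate had a summit, and 0% of unclustered genes were occupied; a shorter limit admits fewer summits by construction. With the stronger 50% of the IDR peaks, 4 genes had 4 summits, 0% within 500 bp, and 3.12% of clustered and 6.45% of unclustered genes were occupied. With the whole pooled list these values were 28 genes, 70 summits, 26.6% and 35.5%. A promoter window of 250 bp gave 0%. The mean per replicate, 12.3, was 10.3 with a 5 kb limit, 14.7 with 1 TSS per gene, 10 with genes of any biotype, 31.3 with the whole replicate lists and 4.33 with 50% as many top peaks. Without 1 replicate at a time there were 10 to 11 genes, 10 to 11 summits, 18.2% to 20% within 500 bp, a mean of 12 to 13 genes, 7.81% to 9.38% of clustered genes and 16.1% of unclustered genes. The share of cuticle protein genes stayed below that of all genes at each limit and peak set tried: 3.16% against 19.4% at 1 kb, 9.47% against 24.5% at 5 kb, 13.7% against 27.6% with 1 TSS per gene, 4.21% against 17.2% with the stronger 50% of IDR peaks and 29.5% against 45.2% in the pooled list. With Tb as a member, added after the data had been seen, 10.8% of clustered genes were occupied and no value left its bounds. No paired analysis was possible because the samples form 1 group. With 11 summits every share over summits has a wide interval, and nearest-gene assignment does not show which gene a site serves.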
